A study of Mus musculus with 3530 samples.

Results

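Corticothalamic-like neurons of layer 6 were 585 of the 2327 excitatory neurons and of the 3530 cells of the series. They were selected on their own transcripts. A cell counted as excitatory where its summed CPM (counts scaled to a common total per cell) of Slc17a7, Neurod2 and Neurod6 was above that of Gad1 and Gad2. Log2(CPM + 1) of each rule gene was then standardised over the excitatory cells, and a cell took the type with the highest mean z score, if above 0, among 6 sets of 3 genes. The corticothalamic set was Rprm, Foxp2 and Ighm, and the other sets stood for upper layer, middle layer (579 cells), layer 6 intratelencephalic (310), near-projecting (346) and layer 5 (212) neurons, with 48 excitatory cells of no type. Because these genes chose the cells, their levels are a description, and a contrast of the members with the rest is given with no test.

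The cells came from the medial prefrontal cortex of mice with the alleles TRAP2 and Ai14, which all groups carried, and were profiled singly by Smart-seq2, which reads full-length transcripts. TRAP2 is an activity-dependent, tamoxifen-inducible recombinase driven from the Fos locus, and Ai14 is a tdTomato reporter that it switches on for good, so that cells active while the drug is present stay marked. The labels name 4 conditions of a contextual fear experiment, Fear-Recall (22.9% of 948 excitatory cells, 5 animals), Fear-Only (155 members or 29.0% of 535 cells, 5 animals), Context-Only (131 members or 22.5% of 583 cells, 5 animals) and Homecage (82 members or 31.4% of its excitatory cells, 5 animals). Titles of sets 2 to 4 name a sorting gate, pos or neg, which left 255 pos and 139 neg members, 22 from a plate marked with both gates and the rest from sets 1 and 5, where no gate is named. The labels give no age, sex, schedule, drug dose or definition of the gates, and they do not say what a set number shares beyond the number.

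Neurons of this kind sit in the deepest cortical layer and send axons back to the thalamus, with collaterals to the thalamic reticular nucleus and to upper cortical layers, and so adjust the input that the cortex receives. They release glutamate, and their identity depends on transcription factors such as Tbr1, Fezf2 and Foxp2. In the prefrontal cortex they are linked chiefly with the mediodorsal and midline thalamus. When a neuron is strongly active, calcium and cyclic AMP signals start immediate early genes such as Fos, Arc and the Nr4a family within minutes, and these are followed by slower effector genes.

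Members held 100259 to 5137420 reads (median 804315) and 2287 to 9601 genes (median 7084), against a median of 7331.5 genes in the other excitatory neurons. Of 20 animals, 17 gave 5 or more members, while Fear-Only animal 4 gave 0 of 32 excitatory cells (exact 95% upper limit 10.9%), Homecage animal 4 gave 0 of 12 (26.5%) and Homecage animal 1 was a single cell. Several libraries stood apart before any result was read. In Homecage animal 2 the 9 pos members had a median of 4247 genes, against 7505.5 in its 24 neg members, and in Context-Only animal 2 the 16 pos members had 5009, against 6217 in its 6 neg members. The 26 neg members of Fear-Only animal 3 were the deepest, with a median of 2750619.5 reads. Results that rest on these libraries are given with and without them where a call or direction changed.

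Promoter sequences are shown first for the 3 nuclear receptor genes Nr4a1, Nr4a2 and Nr4a3, because all 3 leaned higher in pos members. Each run covers 250 bases before to 50 bases after the start of the RefSeq gene in the build GRCm38.p6, read along the gene's strand. Capitals mark TGACG, the half-site bound by CREB and its relatives, or its reverse complement CGTCA. The window of Nr4a1 lies at chr15:101266596-101266895 on the plus strand, that of Nr4a2 at chr2:57123954-57124253 on the minus strand, and that of Nr4a3 at chr4:48045055-48045354 on the plus strand.
Nr4a1: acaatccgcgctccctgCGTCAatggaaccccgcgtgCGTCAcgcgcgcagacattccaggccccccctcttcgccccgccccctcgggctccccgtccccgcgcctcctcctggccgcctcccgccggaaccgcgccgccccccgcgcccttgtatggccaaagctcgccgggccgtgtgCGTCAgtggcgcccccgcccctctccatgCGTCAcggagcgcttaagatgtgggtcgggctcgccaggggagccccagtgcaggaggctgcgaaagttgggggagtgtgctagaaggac
Nr4a2: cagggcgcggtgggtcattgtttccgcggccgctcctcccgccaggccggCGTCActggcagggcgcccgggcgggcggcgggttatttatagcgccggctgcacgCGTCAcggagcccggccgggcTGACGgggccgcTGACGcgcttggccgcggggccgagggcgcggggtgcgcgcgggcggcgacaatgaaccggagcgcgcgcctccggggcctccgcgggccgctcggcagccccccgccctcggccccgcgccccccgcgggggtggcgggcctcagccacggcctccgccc
Nr4a3: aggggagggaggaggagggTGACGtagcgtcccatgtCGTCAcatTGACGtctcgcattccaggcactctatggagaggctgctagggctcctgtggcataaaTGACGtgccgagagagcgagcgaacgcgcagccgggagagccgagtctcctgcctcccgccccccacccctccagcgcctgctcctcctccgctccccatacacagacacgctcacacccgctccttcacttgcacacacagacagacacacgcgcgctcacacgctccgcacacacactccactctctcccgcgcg
Each window held 4 half-sites, counted on both strands, and 0 copies of the full palindrome TGACGTCA. Among 32851 mouse promoters of the same length, 20.8% held at least 1 half-site, 76 (0.231%) held 4 or more, and 1.79% held the full palindrome. A match of letters is a description and shows no binding.

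The 3 rule genes were unequal in how widely they marked the members. Rprm, a mediator of p53-dependent cell-cycle arrest used in cortex as a marker of layer 6, had a read in 97.8% of members and 40.5% of other excitatory neurons. Foxp2, a forkhead transcription factor, had a read in 96.1% of members and 14.2% of the others. Ighm, the constant region of the immunoglobulin mu heavy chain, had a read in 43.4% of members and 2.18% of the others. In all, 321 members had reads of 2 of the 3 genes, 23 of 1 and the rest of all 3. In GENCODE annotation of GRCm38, Rprm is a protein-coding gene at chr2:54084093-54085552 on the minus strand, Foxp2 a protein-coding gene at chr6:14901349-15441977 on the plus strand and Ighm an immunoglobulin constant gene at chr12:113418558-113422730 on the minus strand.

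Summed over the members of each animal, Rprm stood at 511 to 1027 CPM (median 777, n = 17 animals), with a mean of 757 ± 126.7 CPM (SD), against 75.4 ± 34.3 CPM in the other excitatory neurons. Foxp2 stood at 55.4 to 185 CPM (median 107.97) in members, a mean of 116 ± 41.1, against 5.49 ± 3.33 CPM in the others. Ighm was the uneven one, at 8.64 to 501 CPM (median 157.1) with a mean of 230 ± 153.2, against 4.47 ± 8.09 CPM in the others. CPM is not divided by transcript length, so levels are compared between cells and not between genes. By condition, members held 8.64, 137, 157.1, 155 and 123.3 CPM of Ighm in Fear-Recall animals 1 to 5. Ighm stood at 43.8, 422, 99.8 and 458 CPM in Fear-Only animals 1, 2, 3 and 5. It stood at 501, 303, 137, 333 and 432 CPM in Context-Only animals 2, 3, 4, 5 and 5b and at 120.8, 281.02 and 193.07 CPM in Homecage animals 2, 3 and 5. The Fear-Recall values were thus mostly low and overlapped those of every other condition, whereas Rprm averaged between 729 and 865 CPM in all 4 conditions (729 ± 68.1 in Fear-Only, 865 ± 193.4 in Homecage).

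**Figure D1:**
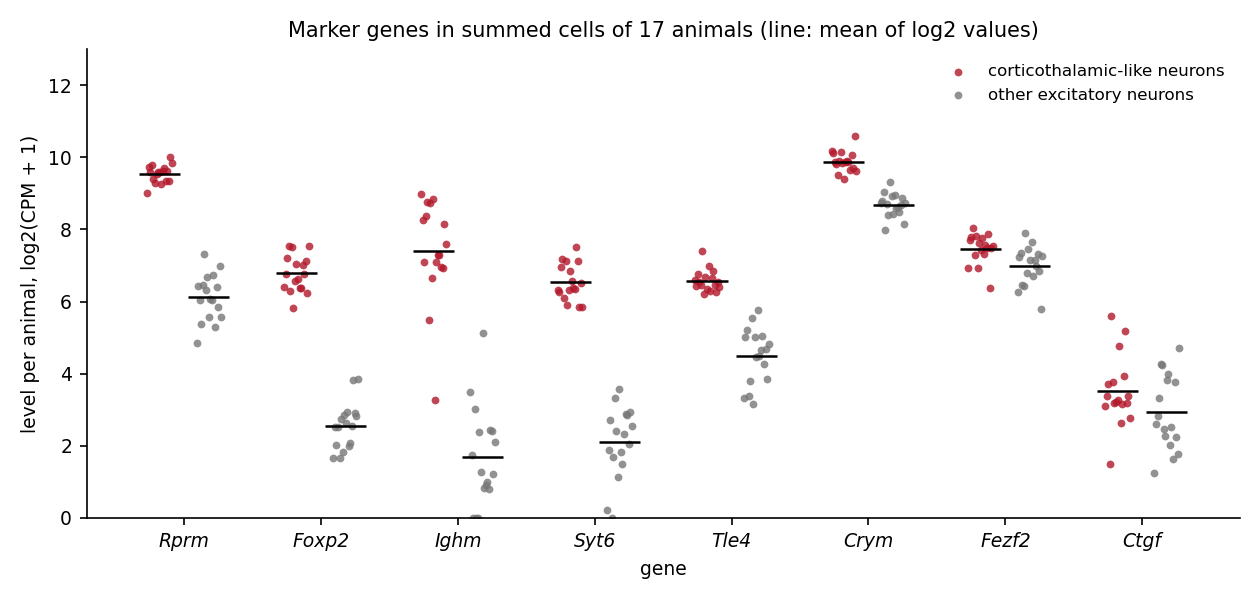
Levels of 8 marker genes, log2(CPM + 1), in the summed corticothalamic-like neurons and in the summed other excitatory neurons, 1 point per animal (17 animals), with the mean of the log2 values as a line. Rprm, Foxp2 and Ighm chose the cells. Syt6 and Tle4 were separated in every animal, Fezf2 overlapped widely, and Ighm ran from 8.64 to 501 CPM between animals.

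Genes that the rule did not use followed the corticothalamic name in most cases. Of 18 other corticothalamic markers, 16 had a mean log2 ratio of members to other excitatory neurons above 0, with a median of 1.29 over the list, against −0.12 over all 13698 genes with a mean of at least 1 CPM. Of the 18, 10 were higher in all 17 animals, as were 1.45% of all 13698 genes. Syt6, a synaptotagmin of vesicle traffic, averaged 97.5 ± 36.03 CPM in members and 4.20 ± 2.995 CPM in the others, and had a read in 90.6% and 4.31% of these cells. Sla, a Src-like adaptor, averaged 74.3 ± 42.9 against 3.27 ± 3.22 CPM, and Col5a1, a fibrillar collagen chain, averaged 14.2 ± 7.45 against 1.46 ± 1.52 CPM. Nfia, a nuclear factor I transcription factor, averaged 101 ± 52.3 against 21.8 ± 13.4 CPM, and Tbr1, the T-box factor of early deep-layer neurons, 117.2 ± 30.0 against 46.6 ± 18.98 CPM. Pcsk5, a proprotein convertase, went the other way with 10.5 ± 8.91 against 23.7 ± 16.3 CPM, as did Kcnab3, a potassium channel subunit, with 4.72 ± 4.97 against 12.4 ± 5.94 CPM.

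Several of these markers were shared with a neighbouring type. Tle4, a transcriptional corepressor, averaged 96.8 ± 22.9 CPM in members (n = 17 animals) and 71.3 ± 48.5 CPM in near-projecting neurons (n = 16), but 12.8 ± 14.1 CPM in layer 6 intratelencephalic neurons (n = 16). Hs3st4, a heparan sulfate sulfotransferase, averaged 170 ± 86.5 CPM in members and 111 ± 50.5 CPM in near-projecting neurons. Fezf2, the factor that specifies subcortical projection neurons, averaged 182.5 ± 45.8 CPM in members, below 298.3 ± 72.6 CPM in near-projecting and 210.7 ± 81.6 CPM in layer 5 neurons. Sulf1, a heparan endosulfatase, averaged 44.2 ± 22.6 CPM in members and 49.9 ± 25.8 CPM in layer 6 intratelencephalic neurons. Ntsr1, the neurotensin receptor whose Cre driver line marks corticothalamic cells in sensory cortex, was low in members with a mean of 12.8 ± 7.36 CPM, against 5.64 ± 2.97 CPM in all other excitatory neurons and 17.1 CPM in layer 6 intratelencephalic neurons. Crym, which binds thyroid hormone in the cytosol, averaged 963 ± 204.04 CPM in members and 685 ± 286 CPM in layer 5 neurons (n = 12).

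The order of Rprm over types was members, then near-projecting neurons with 146.4 ± 64.4 CPM, then layer 5 (52.3 ± 40.2), layer 6 intratelencephalic (52.2 ± 39.4) and middle layer neurons (49.1 ± 27.1), which did not differ beyond their spread, then cells that were not excitatory (29.3 ± 25.9) and upper layer neurons (16.7 ± 20.2). Foxp2 was next highest in near-projecting neurons, at 14.9 ± 15.1 CPM. Ighm was next highest in layer 6 intratelencephalic neurons, at 21.3 ± 32.4 CPM, and was near 0 in near-projecting neurons, at 0.00997 ± 0.0399 CPM. Syt6 stood at 17.7 ± 9.65 CPM in cells that were not excitatory, above its level in every other excitatory type.

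Beyond the lists, the genes with the highest ratio included signalling and secreted proteins. Ppp1r1b, which encodes the dopamine-regulated phosphoprotein DARPP-32, averaged 381 ± 114.7 CPM in members and 55.4 ± 20.6 CPM in the others. Ddah1, which degrades asymmetric dimethylarginine, averaged 349 ± 126 against 58.8 ± 32.5 CPM. Cntnap4, a neurexin-like adhesion protein, averaged 72.7 ± 39.6 against 10.3 ± 6.37 CPM. The secreted ligand Wnt2 averaged 34.1 ± 13.6 against 6.36 ± 6.61 CPM and Wisp1, a matricellular protein induced by Wnt signalling, 33.0 ± 18.1 against 5.69 ± 6.82 CPM. Lsp1, an actin-binding protein of leukocytes, averaged 68.8 ± 32.8 against 7.20 ± 9.51 CPM, and the interferon-induced Ifi27 168.9 ± 81.9 against 22.5 ± 10.3 CPM. Others among the 20 highest were Prss35, Sebox, Aldh3a1, Cldn10, Fancd2 and Olfml2b, and 2 predicted genes that are not named. Of 9 layer 6b markers, 6 had a log2 ratio above 0 and 3 below (median 0.17), and 0 were higher in all 17 animals. The 2 highest were Drd1 and Hcrtr1. Drd1, the D1 dopamine receptor, averaged 14.5 ± 12.95 against 5.03 ± 2.58 CPM and Hcrtr1, the type 1 orexin receptor, 9.50 ± 6.52 against 1.27 ± 1.46 CPM.

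The clearest absence was Slc30a3, the transporter that loads zinc into glutamatergic vesicles. It stood at 0 to 3.13 CPM (median 0) in members, a mean of 0.351 ± 0.862 CPM, against 358 ± 98.8 CPM in the other excitatory neurons, and had a read in 1.03% of members and 71.2% of the others. Near-projecting neurons held 179.4 ± 136.6 CPM of it and layer 5 neurons 213 ± 98.2 CPM. Cpne9, a copine that binds membranes in response to calcium, averaged 0.706 ± 1.17 against 84.9 ± 26.2 CPM. The orphan receptor Gpr83 averaged 0.704 ± 1.01 against 92.6 ± 45.6 CPM, Kcnip1, a partner of A-type potassium channels, 0.268 ± 0.753 against 51.5 ± 30.5 CPM, and the enkephalin precursor Penk 2.37 ± 5.08 against 107.9 ± 135.7 CPM. Of 12 intratelencephalic markers 0 were above 0 in log2 ratio and 6 were lower in all 17 animals (median −2.38), while 410 (2.99%) of all 13698 genes were lower in all 17 animals. Lamp5 averaged 71.4 ± 59.0 against 230 ± 95.9 CPM.

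General features of excitatory neurons also differed in level. Nrn1, a secreted neurotrophic protein regulated by activity, averaged 156.01 ± 93.2 CPM in members and 752 ± 213 CPM in the others, lower in 17 of 17 animals. Neurod1 averaged 1.19 ± 1.92 against 24.7 ± 11.6 CPM, and the kinase subunit Camk2a 1017 ± 518 against 1430 ± 692 CPM. Slc17a7, the vesicular glutamate transporter used in the rule, averaged 121 ± 46.7 against 103 ± 41.1 CPM. The glutamate transporter Slc1a2, listed as an astrocyte marker, averaged 584 ± 148.3 against 343 ± 70.9 CPM and was higher in 17 of 17 animals. Of 23 genes for neurofilaments and the axonal cytoskeleton, 19 had a log2 ratio above 0 (median 0.10), against 4760 of all 13698 genes (median −0.12). Of 73 genes of oxidative phosphorylation 9 were above 0, but their median (−0.12) was that of all genes. Guidance genes, with 11 of 35 above 0, were near the share of all genes, with a lower median (−0.61).

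Markers of other classes were low. The summed CPM of 12 inhibitory markers had a median of 0.702 in members (highest 116, in a Homecage animal), against 29.8 in the other excitatory neurons and 22019 in cells that were not excitatory, and 11 of the 12 averaged under 1 CPM. The summed level of 10 oligodendrocyte markers was 16.2 to 203.8 CPM (median 87.5) in members, against 60.8 to 333 CPM (median 165.9) in the other excitatory neurons. That of 10 microglia markers was 22.8 to 75.3 CPM (median 48.2), against 12.6 to 246.96 CPM (median 34.6), and of 8 endothelial and mural markers 0.155 to 45.3 CPM (median 14.4), against 0.768 to 35.6 CPM (median 9.23). The 10 astrocyte markers summed to 432 to 1206 CPM (median 742), against 328 to 673 CPM (median 521), and Slc1a2 alone made up most of that sum.

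Members differed among themselves in how clearly they belonged. The mean z score of the rule genes ran from 0.00367 to 2.57 (median 0.939), and its lead over the next type had a median of 0.868. The lead was at least 0.5 in 442 members and under 0.1 in 21, and another 22 excitatory cells missed membership by less than 0.1. Just inside, the closest member scored 0.502 against 0.499 for near-projecting, and just outside, the closest cell scored 0.811 against 0.817 for layer 6 intratelencephalic. The runner-up type was layer 6 intratelencephalic in 240 members, layer 5 in 77, upper layer in 63, middle layer in 23 and near-projecting in the rest. In members with a lead under 0.5, Syt6 had a read in 81.8% (Clopper-Pearson 95% interval 74.5% to 87.8%) and in those with a larger lead in 93.4% (90.7% to 95.6%). These intervals, like those of all shares of cells here, cover counting error only.

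A small number of members carried transcripts of layer 6b, the thin band of early-born neurons under layer 6. Of 585 members, 28 had reads of at least 2 of Ctgf, Cplx3 and Nxph4 (18 of 2 genes, 3.08%, and 10 of all 3, 1.71%), against 11 and 15 of 1742 other excitatory neurons. In these 28 cells Cplx3, a complexin of vesicle release, averaged 464 CPM, against 6.16 CPM in the other 557 members. Nxph4, a neurexophilin, averaged 16.9 against 0.0519 CPM and Ctgf, a matricellular protein, 81.2 against 8.14 CPM, but these 3 genes selected the cells. Some genes not used in that choice differed as well, in means over cells pooled across animals and with no test. Rprm averaged 253 CPM in the 28 cells and 781 CPM in the rest, Ighm 61.999 against 201.9 CPM, Tbr1 72.2 against 117.8 CPM and Svil, a membrane-bound actin organiser, 29.2 against 0.635 CPM. Of the other layer 6b markers, Trh, the thyrotropin-releasing hormone precursor, averaged 11.5 against 2.10 CPM and Moxd1, a monooxygenase, 4.84 against 0 CPM, whereas Drd1 (12.3 against 12.6 CPM) and Hcrtr1 (11.8 against 11.4 CPM) were close and Inpp4b, a phosphoinositide phosphatase, was lower at 3.03 against 5.01 CPM. Foxp2 (94.4 against 107 CPM) and Tle4 (93.001 against 100.4 CPM) were close. Some means of the 28 cells rest on few cells, as 28.6% of them had a read of Svil, 25% of Trh and 14.3% each of Moxd1 and Ighm. The share of members with 2 or more layer 6b genes ran from 0% in 4 of 17 animals to 12.2% in Fear-Recall animal 1 (5 of 41) and 16.7% in Fear-Only animal 1 (2 of 12).

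Corticothalamic-like neurons made up 31.8%, 16.1%, 28.1%, 14.1% and 30.0% of excitatory cells in Fear-Recall animals 1 to 5. The share was 66.7%, 21.6%, 30.4% and 41.9% in Fear-Only animals 1, 2, 3 and 5, of which animal 1 gave only 18 excitatory cells. It was 16.5%, 27.98%, 26.8%, 20% and 17.2% in Context-Only animals 2, 3, 4, 5 and 5b and 28.4%, 47.8% and 30.2% in Homecage animals 2, 3 and 5. The means were 24.03% ± 8.27 (SD, n = 5), 40.1% ± 19.5 (n = 4), 21.7% ± 5.38 (n = 5) and 35.5% ± 10.7 (n = 3). These values cover only animals with 5 or more members. Among them, every Homecage share lay above every Context-Only share (lowest 28.4%, highest 27.98%), and the other pairs of conditions overlapped. The minimum left out Fear-Only animal 4 (0 of 32 excitatory cells), Homecage animal 4 (0 of 12) and the single cell of Homecage animal 1. With Homecage animal 4 kept, the Homecage and Context-Only shares overlap. The gates are mixed in different parts in these animals, so no test was run over all gates.

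**Figure D2:**
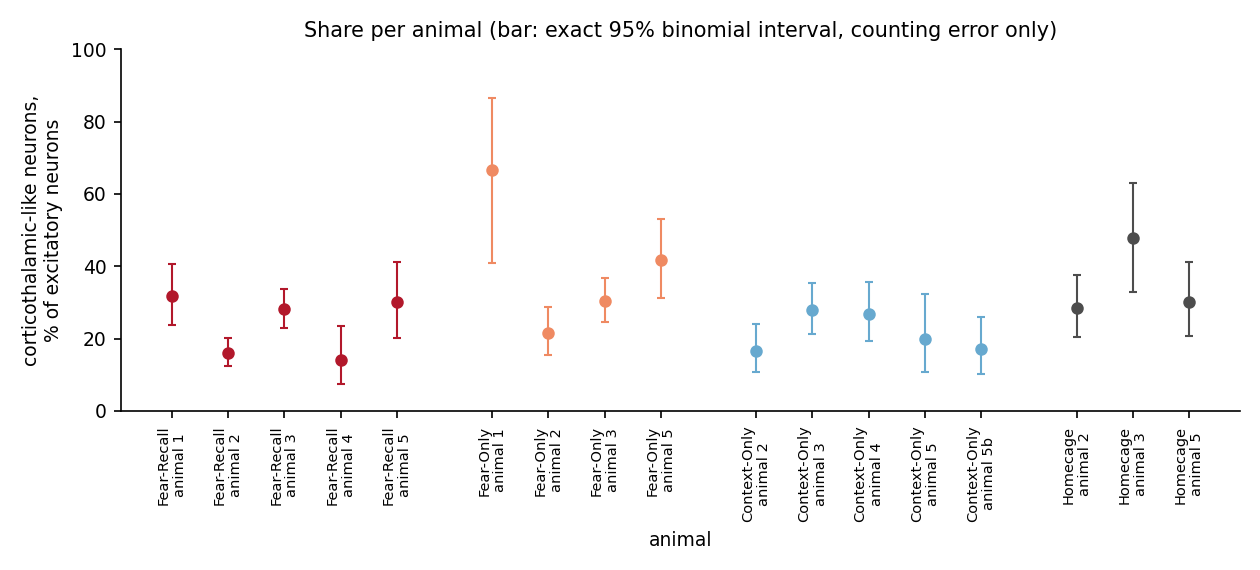
Corticothalamic-like neurons as a percentage of the excitatory neurons of each animal (17 animals with 5 or more members), coloured by condition, with exact 95% binomial intervals that cover counting error only. The widest interval is that of Fear-Only animal 1, at 66.7% of 18 cells. Among the animals shown, the Homecage shares lie above the Context-Only shares, and the other pairs of conditions overlap. Homecage animal 4 (0 of 12 excitatory cells) and Fear-Only animal 4 (0 of 32) are not shown.

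Sorting by gate did not enrich or deplete the type detectably. In 8 animals with both gates, members were 14.6% to 29.9% (median 25.02%) of pos excitatory cells and 11.3% to 36.1% (median 25.7%) of neg excitatory cells. The share was higher in pos cells of 3 animals and lower in 5, with a mean difference of −0.933 ± 7.74 percentage points (SD, n = 8; p = 0.711, exact and two-sided, by flipping signs). Among pos cells, members were 14.6%, 27.6% and 14.1% in Fear-Recall animals 2 to 4, against 20%, 26.2% and 29.9% in Context-Only animals 2 to 4. The means were 18.8% ± 7.63 and 25.4% ± 4.99, and the groups overlapped (exact two-sided permutation test, p = 0.30, n = 3 each, where 0.10 is the smallest p the design allows). That test did not pair animals by set number.

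The reporter transcript followed the gate. A read of the tdTomato reporter was found in 43.8%, 84.8% and 82.6% of pos members of Context-Only animals 2 to 4, in 80.8% and 93.5% of those of Fear-Only animals 2 and 3, in 87.1% and 96.6% of those of Fear-Recall animals 2 and 3, and in 22.2% (2 of 9 cells) of those of Homecage animal 2. The neg members of the same animals gave 0%, 14.3%, 10%, 11.1%, 7.69%, 10.7%, 13.6% and 0%. The means were 73.9% ± 26.4 in pos and 8.43% ± 5.59 in neg members, with the pos value higher in 8 of 8 animals, a mean difference of 65.5 ± 21.6 points and an exact two-sided p by sign flips of 0.00781, the smallest that 8 animals can give. With every cell thinned to 100000 reads, the pos values of Context-Only animal 2 and Homecage animal 2 were 12.5% and 0%. These were the pos libraries with the fewest genes per cell, and the part of that in their values was not tested.

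The share of pos members with the reporter did not differ detectably from that of the other pos excitatory neurons of their animals. Over 9 animals the share with a reporter read was 22.2% to 96.6% (median 84.8%) in members and 43.8% to 96.8% (median 80.1%) in the others. It was higher in members of 4 animals and lower in 4, with a mean difference of 1.06 ± 11.6 points (n = 9; p = 0.789 in the same exact test). Where no gate is named, 29.2% and 48.8% of members of Fear-Recall animals 5 and 1, 36.1% and 100% of those of Fear-Only animals 5 and 1, 33.3% and 41.2% of those of Context-Only animals 5 and 5b and 26.9% of those of Homecage animal 5 had a reporter read.

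Between gates, many genes induced by activity had higher levels in pos members, though none passed the test across all genes. Summed members of 8 animals (6 to 59 cells in a sum, 6891948 to 72151134 counts) were compared with the animal as a block. In the titles, pos and neg cells of most of these animals carry different plate numbers. For those animals the gate cannot be told apart from the plate, and the block does not remove a plate difference. Of 12606 genes tested with edgeR's quasi-likelihood test, 0 (0%) passed a Benjamini-Hochberg adjusted p of 0.05. Unadjusted, 361 had p under 0.05, the smallest adjusted p was 0.710, and DESeq2 called 49 genes (29 higher and 20 lower, of which 21 reached a mean log2 CPM of 4). Without Homecage animal 2, edgeR again called 0 genes, with a smallest adjusted p of 0.0567.

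Of 25 immediate early genes tested, 23 had a log2 fold change above 0, with a median of 0.60, against 6144 of 12606 genes and a median of −0.02 over all genes. The summed level of the list was 2316.5 to 4595 CPM (median 2918) in pos and 1361 to 4033 CPM (median 2194) in neg sums, which overlapped, and was lower in the pos sum of Context-Only animal 4 (2524 against 2927.5 CPM) and Homecage animal 2 (2627 against 4002 CPM). Of the 25, 8 had an unadjusted p under 0.05 and 3 were higher in all 8 animals, as were 84 (0.666%) of all genes tested. DESeq2 called 4 of the 25 higher, Fosb, Nr4a1, Nr4a2 and Nr4a3, and 29 (0.23%) of all genes higher. Of 21 activity-regulated effectors, 19 were above 0 with a median of 0.95, 8 had an unadjusted p under 0.05, 3 were higher in all 8 animals and DESeq2 called 1, Crem. By contrast 4 of 15 genes of the CREB pathway itself were above 0 (median −0.11).

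Nr4a3, an orphan nuclear receptor that acts as an early transcription factor, stood at 22.97 to 104.05 CPM (median 46.9) in pos sums and at 11.8 to 20.99 CPM (median 12.7) in neg sums, both scaled by TMM. The lowest pos value was above the highest neg value, and the gene was higher in 8 of 8 animals, with a log2 fold change of 1.77 ± 0.35 (SE) and an adjusted p of 0.710 by edgeR. Its relative Nr4a2, a factor known from dopamine neurons, stood at 44.1 to 275 CPM (median 97.2) in pos and 10.7 to 75.8 CPM (median 33.9) in neg sums. Nr4a2 was higher in 7 of 8 animals with a log2 fold change of 1.75 ± 0.40, and Homecage animal 2 was the exception, at 44.1 CPM in pos and 75.8 CPM in neg members. Nr4a1, the third of these receptors, stood at 134.1 to 487 CPM (median 297.8) in pos and 58.5 to 332 CPM (median 135.9) in neg sums (log2 fold change 1.02 ± 0.24, 7 of 8 animals). These are the genes whose promoter windows are printed above with 4 half-sites each.

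Crem, the cAMP-responsive element modulator whose short products repress CREB targets, stood at 58.3 to 141.9 CPM (median 105) in pos and 16.6 to 78.6 CPM (median 38.4) in neg sums. It was higher in 8 of 8 animals, with means of 103 ± 30.9 and 41.6 ± 18.5 CPM, and had the smallest p among genes whose mean log2 CPM reached 4 (log2 fold change 1.35 ± 0.26, adjusted p = 0.710 by edgeR). Fosb, a partner of Jun in AP-1, stood at 33.1 to 94.8 CPM (median 44.4) in pos and 10.6 to 33.2 CPM (median 17.3) in neg sums, a log2 fold change of 1.55 ± 0.34, with 7 of 8 animals higher. Metrnl, a secreted meteorin-like factor, averaged 40.2 ± 15.02 CPM in pos and 10.1 ± 7.14 CPM in neg sums, higher in 7 of 8 animals. Tmem178, a membrane protein of the endoplasmic reticulum, averaged 307 ± 82.5 and 163.4 ± 23.3 CPM, higher in 8 of 8. Among effectors, Scg2, a granin of secretory vesicles, averaged 303 ± 104.3 CPM in pos and 192 ± 83.8 CPM in neg sums, Rheb, the GTPase that activates mTORC1, 927 ± 239.4 and 578 ± 220 CPM, and Rgs4, a brake on G-protein signalling, 653 ± 231 and 391 ± 151 CPM.

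The best known immediate early genes behaved otherwise, and 3 are given for that reason, outside the naming rule. Fos, whose locus drives TRAP2, stood at 107.8 to 454 CPM (median 282) in pos and 91.5 to 418 CPM (median 191) in neg sums, higher in 5 of 8 animals (log2 fold change 0.42 ± 0.31, unadjusted p = 0.201). Arc, which acts on synaptic receptors, stood at 213 to 600 CPM (median 278.8) in pos and 106 to 578 CPM (median 263) in neg sums, higher in 4 of 8 animals (log2 fold change 0.13 ± 0.19, unadjusted p = 0.495). Npas4, a calcium-dependent transcription factor, averaged 73.0 ± 103 CPM in pos and 17.3 ± 12.3 CPM in neg sums, and its pos mean rested on Homecage animal 2, at 313 CPM.

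**Figure D3:**
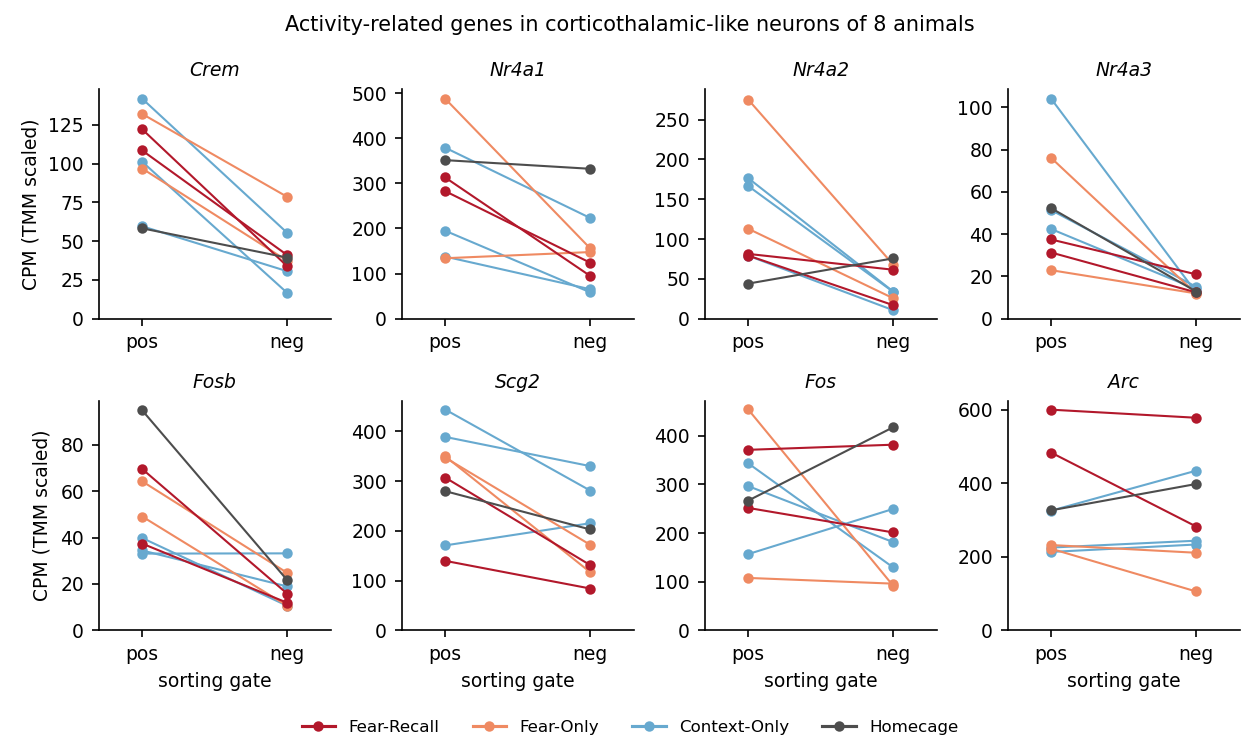
Levels of 8 activity-related genes (TMM-scaled CPM) in summed pos and neg corticothalamic-like neurons of 8 animals, with a line joining the gates of an animal and colours for its condition. Crem and Nr4a3 are higher in pos sums of all 8 animals, Fosb, Nr4a1, Nr4a2 and Scg2 in 7 of 8, Fos in 5 of 8 and Arc in 4 of 8.

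The 4 genes of smallest p on the lower side belonged to no list. Cd164, a sialomucin of the cell surface and lysosome, averaged 36.1 ± 18.98 CPM in pos and 82.9 ± 31.2 CPM in neg sums, lower in 8 of 8 animals (log2 fold change −1.25 ± 0.32). Orai3, a store-operated calcium channel subunit, averaged 8.55 ± 4.79 and 28.02 ± 9.72 CPM, and Ly6g6e, a small surface protein of the Ly6 family, 10.3 ± 7.88 and 45.02 ± 36.7 CPM, both lower in 8 of 8. Serpini1, the protease inhibitor neuroserpin, averaged 213.9 ± 92.04 and 324 ± 78.9 CPM, lower in 7 of 8. None of these passed the edgeR test, with an adjusted p of 0.999 for each.

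EdgeR called 0 genes of the other lists between gates. The 4 astrocyte markers tested were all above 0 (median 0.75), while 2 of 6 intratelencephalic markers (median −0.56) and 5 of 20 monoamine and acetylcholine receptor genes (median −0.41) were. DESeq2 called 1 of 30 potassium channel genes lower. Of 77 ribosomal protein genes 76 had a log2 fold change above 0, with a median of 0.30 and 2 at an unadjusted p under 0.05, and of 73 genes of oxidative phosphorylation 65 did, with a median of 0.32. Ribosomal protein genes share sequence with many processed copies, so single values are uncertain, and none is named for this comparison. Their summed level was 12268.5 to 36879 CPM (median 17483) in pos and 14154 to 27883 CPM (median 15459) in neg sums, with the highest pos values in Homecage animal 2 (36879 CPM) and Context-Only animal 2 (31421 CPM), the libraries with the fewest genes per cell. Among 23 cytoskeletal genes, 16 were above 0 (median 0.12). The neurofilament subunit Nefm averaged 179.3 ± 78.2 CPM in pos and 77.7 ± 32.3 CPM in neg sums and Nefl 278.5 ± 92.8 and 172 ± 35.6 CPM, each higher in 7 of 8 animals. The part of RNA quality in these lists was not tested.

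Markers of layer 6b leaned towards the neg gate. Their summed level was 15.2 to 130 CPM (median 40.4) in pos and 53.0 to 1129 CPM (median 65.6) in neg sums, and 2 of the 6 genes tested had a log2 fold change above 0 (median −0.76). DESeq2 called 1 of them, Cplx3, lower, and edgeR called 0. Inhibitory markers summed to at most 8.47 CPM in pos and 53.3 CPM in neg sums, astrocyte markers to 639 to 1134 and 533 to 837 CPM, microglia markers to 25.7 to 91.7 and 12.8 to 56.4 CPM, and oligodendrocyte markers to 10.7 to 118.3 and 33.2 to 358 CPM. The part of these markers in the gate difference was not tested.

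Whether the gate difference of members departs from that of other excitatory neurons was tested directly, as an interaction in the 32 sums of the same 8 animals. Each animal and class formed a block, and the fit had no term for a gate change that both classes of an animal share. Of 16503 genes, edgeR called 1 (0.00606%), Fstl4, a follistatin-like secreted protein, 571 had an unadjusted p under 0.05, and DESeq2 called 49, of which 44 had a mean log2 CPM under 4. Fstl4 is a gene of other excitatory types. It stood at 45.9 ± 17.7 CPM in their pos sums and was nearly absent from members, with 198 counts in 4 of 8 pos sums and 0 counts in all neg sums. Pooled, pos members held 0.925 CPM of Fstl4, at least 52.8-fold higher than the 0.0175 CPM that 3 counts over all neg members would give. The fitted log2 difference of 8.55 ± 0.77 (adjusted p = 0.00288) thus rests on a level under 1 CPM. Immediate early genes were above 0 in 21 of 27 cases (median 0.20) and effectors in 20 of 25 (median 0.32), against 8343 of 16503 genes and a median of 0.01.

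Of genes with a fuller level in members, the gate difference of Nr4a3 was 1.42 ± 0.41 log2 units larger in members than in other excitatory neurons and that of Crem 0.76 ± 0.29 units larger, with adjusted p of 1 for both by edgeR. Metrnl averaged 41.0 ± 15.6 CPM in pos and 10.4 ± 7.63 CPM in neg members, with a difference between types of 1.70 ± 0.43 (adjusted p = 0.837). For Orai3 this difference was −1.98 ± 0.53 (adjusted p = 0.871). Syt17 and Fam19a1 had fitted differences of 6.26 and 5.71 but averaged 0.122 and 0.173 CPM in pos members, so these values carry little weight. Tshz2, a rule gene of the near-projecting type, averaged 0.891 ± 2.00 CPM in pos and 7.53 ± 9.81 CPM in neg members. Ly6e and Fndc5 completed the genes of smallest p on the lower side, at −0.63 ± 0.19 and −1.75 ± 0.56.

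Among pos members, Fear-Recall was compared with Context-Only (3 animals each) and with Fear-Only (2 animals), and Fear-Only with Context-Only, to ask whether the type differs between conditions. In these pos members, Arc and Dusp6 stood higher in each of the 3 Fear-Recall animals than in any Fear-Only or Context-Only animal, yet no gene passed the test. The sums of the pos comparisons held 12 to 59 cells and 16452581 to 44002516 counts, and all 3 conditions shared 1 estimate of the spread. EdgeR called 0 (0%) of 15120 genes, with 916 at an unadjusted p under 0.05 and a smallest adjusted p of 0.773, and DESeq2 called 32 (25 higher, 7 lower), of which 29 had a mean log2 CPM under 4 and 25 a fitted change of at least 16-fold. Against Fear-Only the counts were 0 (0%) by edgeR, 302 unadjusted and 9 by DESeq2, and for Fear-Only against Context-Only 0 (0%), 377 and 15. The 3 comparisons share animals, so that a gene's values in them are not independent. They were tested without pairing animals by set number. With the set number as a block, edgeR again called 0 genes in each, with a smallest adjusted p of 0.645 for Fear-Recall against Context-Only.

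Of 26 immediate early genes, 20 were above 0 in Fear-Recall against Context-Only, with a median of 0.53 against 0.03 over all genes, and 3 had an unadjusted p under 0.05. In 4 of the 26 every Fear-Recall animal was above every Context-Only animal, as in 872 (5.77%) of all genes, and in 1 every animal was below, as in 644 (4.26%). Their summed level was 4595, 3664 and 6014 CPM in Fear-Recall animals 2 to 4, against 2532, 3209 and 2524 CPM in Context-Only animals 2 to 4. These pos sums did not overlap. Over all gates the summed level was 1138 to 6014 CPM (median 3374) in 5 Fear-Recall animals and 2379 to 6999.5 CPM (median 2980) in 5 Context-Only animals, which overlapped, and the Fear-Recall mean was the lower one (3618.5 ± 1778 against 3976 ± 1954 CPM). Of 25 effectors, 11 were above 0, with a median of −0.06. Their summed level in pos members was 4464, 4971 and 5050.5 CPM in Fear-Recall animals 2 to 4. In Context-Only animals 2 to 4 it was 3542, 4581 and 4251 CPM, so that these sums leaned higher in Fear-Recall and overlapped.

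Arc stood at 595, 481 and 1041 CPM in pos members of Fear-Recall animals 2 to 4, against 219.3 and 231 CPM in Fear-Only animals 2 and 3 and 210, 223 and 326 CPM in Context-Only animals 2 to 4. Every Fear-Recall value was above every other value, with a log2 fold change of 1.48 ± 0.34 against Context-Only (adjusted p = 0.773 by edgeR) and 1.65 ± 0.40 against Fear-Only. Dusp6, a phosphatase that turns off ERK and is itself induced by ERK, stood at 183.5, 76.5 and 308 CPM in Fear-Recall, against 33.8 and 45.3 CPM in Fear-Only and 25.01, 44.7 and 56.6 CPM in Context-Only animals. Its log2 fold change against Context-Only was 2.17 ± 0.52, and animal 4 was the highest for both genes. Over all gates the conditions overlapped in Dusp6. It stood at 34.5 and 44.9 CPM in Fear-Recall animals 1 and 5, against 94.2 CPM in Fear-Only animal 1 and 91.6 CPM in Context-Only animal 5b. In pos members Dusp1, a phosphatase with a similar early response, stood at 487, 261.4 and 746 CPM in Fear-Recall and 138.4, 180.6 and 242 CPM in Context-Only animals. Plk2, a polo-like kinase of synaptic scaling, averaged 488 ± 76.4 and 263 ± 51.6 CPM, also without overlap.

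Nr4a3 went the other way and stood at 37.2, 31.2 and 14.6 CPM in Fear-Recall, against 102, 42.1 and 51.5 CPM in Context-Only animals, a log2 fold change of −1.24 ± 0.56 with no overlap. Pcdh7, a protocadherin of cell adhesion, had the smallest p among genes of sufficient level, at 116, 104.02 and 87.2 CPM in Fear-Recall, 67.5 and 65.0 CPM in Fear-Only and 21.5, 35.5 and 36.5 CPM in Context-Only animals, so that the 3 conditions were fully separated (log2 fold change 1.71 ± 0.33 against Context-Only). Cep57, a centrosomal protein, averaged 26.9 ± 5.29 and 7.60 ± 2.15 CPM. Fdps and Ebp, both enzymes of sterol synthesis, averaged 126.9 ± 25.2 and 37.3 ± 12.2 CPM in Fear-Recall, against 302 ± 102 and 122 ± 77.2 CPM in Context-Only animals. Ifi27 averaged 95.1 ± 37.7 and 290 ± 138.2 CPM and Psen2, a catalytic subunit of gamma-secretase, 12.7 ± 1.04 and 48.2 ± 28.5 CPM. In all 4 genes the groups did not overlap, and Context-Only animal 2 was the highest of its group.

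**Figure D4:**
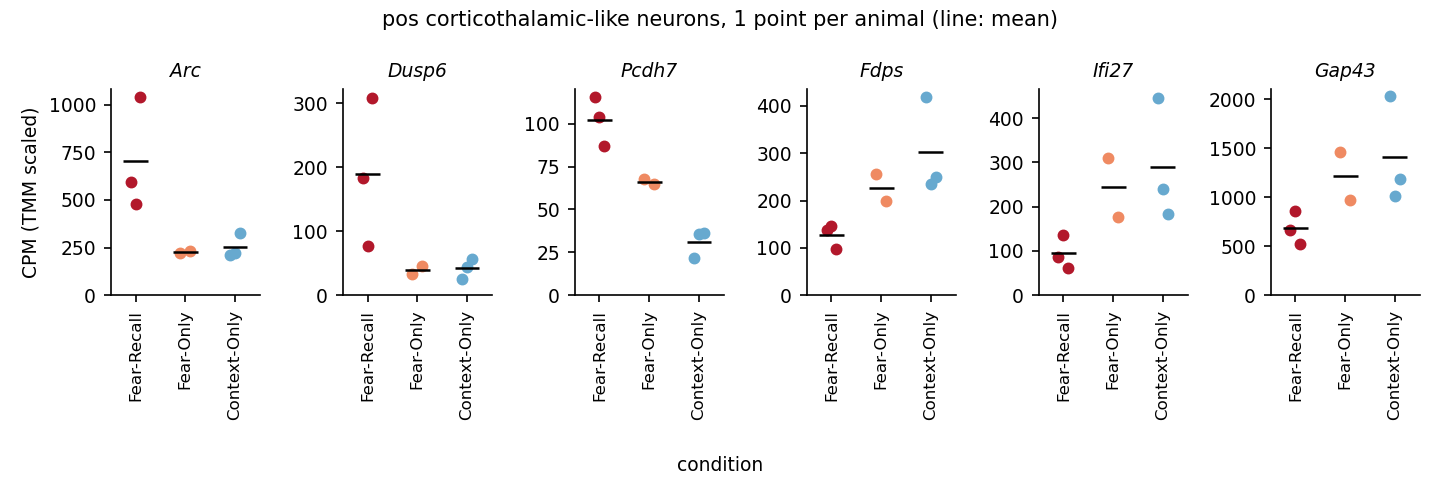
Levels of 6 genes (TMM-scaled CPM) in summed pos corticothalamic-like neurons of 3 Fear-Recall, 2 Fear-Only and 3 Context-Only animals, 1 point per animal with the mean as a line. Arc, Dusp6 and Pcdh7 are highest in Fear-Recall animals, and Fdps, Ifi27 and Gap43 lowest. None passed the edgeR test.

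Gene lists of protein synthesis and respiration leaned lower in Fear-Recall. Of 77 ribosomal protein genes 0 were above 0 against Context-Only (median −0.74, 6 at an unadjusted p under 0.05, 3 below every Context-Only animal, where 4.26% of all genes were), and of 73 genes of oxidative phosphorylation 3 were (median −0.80, 9 at an unadjusted p under 0.05). In summed level, though, ribosomal genes stood at 16294, 15969 and 11139 CPM in Fear-Recall animals, against 31421, 18444 and 12268.5 CPM in Context-Only animals, which overlapped. Context-Only animal 2 was the highest. Median genes per pos member were 7154 to 8149.5 in the Fear-Recall animals, against 5009, 7397 and 7226 in Context-Only animals 2 to 4. The part of gene detection in these lists was not tested. Ndufb9, a complex I subunit, stood at 327, 293.8 and 278 CPM in Fear-Recall animals, against 1082, 400.3 and 338 CPM in Context-Only animals, so that the distance rested mostly on Context-Only animal 2.

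Some axonal growth proteins also leaned lower in Fear-Recall. Gap43, the growth-cone protein, stood at 671, 865 and 527 CPM in Fear-Recall, against 2031, 1011 and 1188 CPM in Context-Only animals, and Stmn2, a tubulin regulator of growth cones, at 868, 1008 and 750 CPM against 2039, 1478 and 1062 CPM. Neither gene's groups overlapped, and of 23 cytoskeletal genes 8 were above 0 and 7 were below every Context-Only animal, as were 4.26% of all genes. On the higher side, 25 of 30 potassium channel genes (median 0.46), 20 of 30 guidance genes (median 0.51) and 9 of 14 GABA receptor genes (median 0.44) were above 0. Rgs4 stood at 1006, 841 and 1170 CPM in Fear-Recall and 447, 474 and 849 CPM in Context-Only animals, which overlapped, and Rasd1, a small G protein induced by glucocorticoids, was low throughout at 0.184 ± 0.179 and 4.12 ± 5.18 CPM.

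Against Fear-Only, Hddc3, a metal-dependent phosphohydrolase, had the smallest p, at 15.6, 8.04 and 8.39 CPM in Fear-Recall, 62.8 and 70.1 CPM in Fear-Only and 13.1, 18.6 and 10.5 CPM in Context-Only animals. It was thus high in both Fear-Only animals, with log2 fold changes of −2.64 ± 0.50 for Fear-Recall against Fear-Only and 2.24 ± 0.50 for Fear-Only against Context-Only (adjusted p = 1 for both by edgeR). On the higher side the smallest p was that of Eno1b, at 130.5 ± 6.95 CPM in Fear-Recall and 0.230 ± 0.0737 CPM in Fear-Only animals, which has a near-identical copy and was called by edgeR without Context-Only animal 2. Arcn1, the delta subunit of the COPI coat, averaged 60.1 ± 17.2 CPM in Fear-Recall and 12.52 ± 4.73 CPM in Fear-Only animals. Mapk3, which encodes the kinase ERK1, averaged 22.6 ± 4.87 and 76.1 ± 25.5 CPM, Nnat, an imprinted regulator of calcium stores, 68.9 ± 38.6 and 311 ± 233 CPM, and the microtubule protein Tppp3 41.7 ± 12.8 and 124.5 ± 36.9 CPM. Of 26 immediate early genes, 16 were above 0 (median 0.26), and all 77 ribosomal genes were below 0 (median −0.42), 39 of them below both Fear-Only animals. With 3 against 2 animals that separation is common, since 1710 (11.3%) of all genes lay below and 1702 (11.3%) above both Fear-Only animals.

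Fear-Only against Context-Only gave smaller list medians, at 0.12 for immediate early genes (16 of 26 above 0), 0.06 for effectors (14 of 25) and −0.31 for ribosomal proteins (3 of 77). Besides Hddc3 and Pcdh7, Tmem56, a membrane protein, averaged 40.3 ± 10.8 CPM in Fear-Only and 10.5 ± 1.98 CPM in Context-Only animals, and Vamp1, a synaptobrevin of the vesicle fusion machinery, 26.5 ± 11.4 and 7.13 ± 4.14 CPM. On the lower side, Eno1b had the smallest p, at 0.230 ± 0.0737 CPM in Fear-Only and 130.3 ± 115.4 CPM in Context-Only animals, but has a near-identical copy, so its reads cannot be assigned with certainty. It too was called without Context-Only animal 2. Deaf1, a transcription factor, averaged 29.5 ± 1.11 and 69.7 ± 23.9 CPM, Saal1 14.7 ± 0.66 and 41.4 ± 14.4 CPM and Cdk18, a cyclin-dependent kinase, 15.3 ± 7.28 and 47.2 ± 28.7 CPM. None passed the edgeR test.

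Homecage animals could be compared only over all gates, in members of 17 animals (12 to 81 cells, 6438739 to 105425980 counts), and the gates are mixed differently in each. Fear-Recall against Homecage gave 0 (0%) of 15650 genes by edgeR, with 1403 at an unadjusted p under 0.05 and a smallest adjusted p of 0.544, and 82 by DESeq2 (75 higher, 7 lower), of which 63 had a mean log2 CPM under 4 and 55 a fitted change of at least 16-fold. Immediate early genes were above 0 in 11 of 27 cases (median −0.23), against 8219 of 15650 genes and a median of 0.05. Their summed level was 1138, 4348, 3218, 6014 and 3374 CPM in Fear-Recall animals 1 to 5 and 3495, 3074 and 4013 CPM in Homecage animals 2, 3 and 5, which overlapped. Nr4a1 averaged 171.4 ± 73.2 and 353 ± 189.5 CPM, Ier3 15.5 ± 13.5 and 49.2 ± 37.1 CPM, and Dusp6 122 ± 116.7 and 50.3 ± 32.6 CPM, each with overlap. Plk2 averaged 435 ± 99.6 CPM in Fear-Recall and 244.03 ± 78.8 CPM in Homecage animals, without overlap.

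Ribosomal and respiratory genes leaned lower here as well. Of 77 ribosomal genes 1 was above 0 (median −0.74, 35 at an unadjusted p under 0.05), and 24 lay below every Homecage animal in every Fear-Recall animal, as did 542 (3.46%) of all genes. Of 73 genes of oxidative phosphorylation 4 were above 0 (median −0.88, 42 lower at an unadjusted p under 0.05) and 27 lay below every Homecage animal. Ndufs5, a complex I subunit, averaged 176.4 ± 26.9 CPM in Fear-Recall and 404 ± 170.7 CPM in Homecage animals, and Rpl13a, which has many copies, 67.5 ± 8.33 and 122 ± 32.6 CPM. Summed ribosomal levels were 11139 to 15893 CPM in the 5 Fear-Recall animals, against 14660 to 24527 CPM in the 3 Homecage animals, which overlapped. Gap43 averaged 869 ± 283.97 and 1470 ± 106 CPM and Stmn2 1001 ± 162.9 and 1699 ± 64.9 CPM, both without overlap. Median genes per member were 5904.5 to 8149.5 in Fear-Recall and 5283.5 to 7355 in Homecage animals, and their part in these lists was not tested.

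Among single genes, Olfml2b, a secreted olfactomedin-like protein that is also 1 of the 20 genes highest in members, stood at 29.3, 35.996, 29.0, 98.3 and 50.4 CPM in Fear-Recall animals 1 to 5 and 2.99, 3.93 and 13.2 CPM in Homecage animals 2, 3 and 5. The groups did not overlap (log2 fold change 2.86 ± 0.66, adjusted p = 0.544 by edgeR). Gosr2, a Golgi SNARE, averaged 74.5 ± 19.5 and 24.1 ± 3.57 CPM, Mars, the methionyl-tRNA synthetase, 70.6 ± 15.97 and 25.6 ± 7.67 CPM, and Hbs1l, a ribosome rescue factor, 49.9 ± 13.1 and 13.6 ± 2.00 CPM, each without overlap. Lower in Fear-Recall were Snrnp25, a protein of the minor spliceosome, at 24.4 ± 6.13 and 80.6 ± 29.9 CPM, Haus7, an augmin subunit, at 6.88 ± 4.14 and 29.9 ± 4.57 CPM, and Mcts2, a near copy of Mcts1 whose reads cannot be assigned with certainty, at 18.6 ± 6.19 and 68.1 ± 27.2 CPM. Zswim7, a recombination protein, averaged 23.9 ± 4.03 and 118.02 ± 106 CPM and overlapped, with Homecage animal 2 at 233 CPM.

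**Figure D5:**
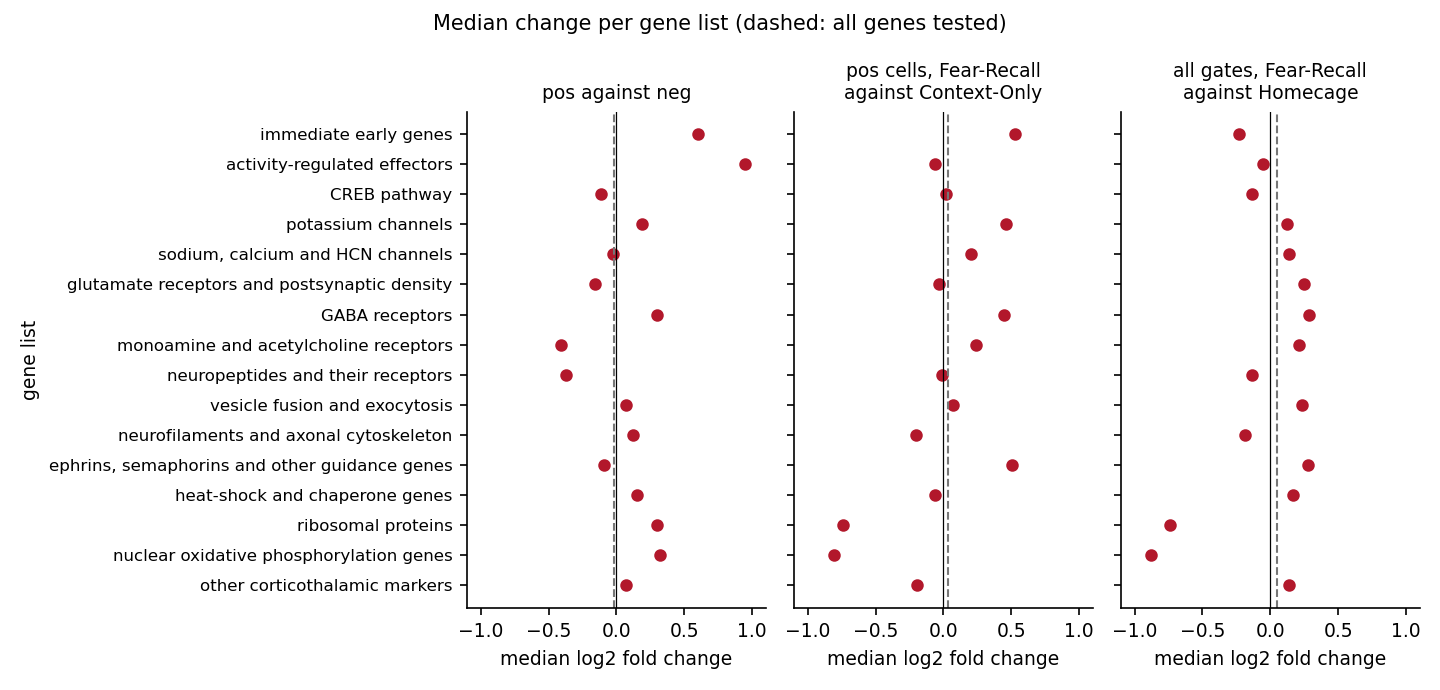
Median log2 fold change of 16 gene lists in corticothalamic-like neurons in 3 comparisons, each against the median of all genes tested (dashed). Of the lists plotted, immediate early genes and effectors lie highest between gates (0.60 and 0.95), while ribosomal (−0.74) and respiratory genes (−0.80 and −0.88) lie lowest in Fear-Recall against Context-Only and against Homecage.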

How the data were processed

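Counts per gene and cell, deposited by the authors as a table of 3530 single cells, were used as given, with sums over cells. Per the submitters' processing notes, Bowtie 0.12.2 and the builds mm8 and mm10 were named, with no role. The counter and annotation are not given in the sources used here. Reporter counts were kept out of the summed counts and the tests of genes, but were part of the totals per cell that scaled CPM in single cells, including the rule. Cells were sorted singly, so no doublet caller was run, and 0 cells were identical.

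Members, lists and comparisons were chosen with earlier results of these data known. Counts of members were summed per animal where 5 or more were present. Sums were tested with edgeR 4.0.16 (TMM, quasi-likelihood, filterByExpr with 10 and 15 as minimum count and total) under R 4.3.3, with DESeq2 1.42.0 and limma 3.58.1 as alternatives and Benjamini-Hochberg adjustment at 0.05. The procedure was also run on simulated counts with the same spread for every gene and no difference between animals. That run does not show what could be detected in these sums. SE is the fold change over the root of F. CPM of tests carries TMM scaling and that of descriptions does not. P-values measure the spread between animals. Shares were compared by exact tests, with Clopper-Pearson 95% intervals.

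Named genes were the 12 largest changes per direction of those called or, with fewer than 6 called, these and the 4 of smallest p per direction whose mean log2 CPM reached 4, plus up to 4 of smallest p from a list. For the description, marker lists and the 20 highest and 10 lowest ratios at 20 CPM or more were used, and predicted genes were not named.

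Set numbers come from the labels. Deviations from group means of same-numbered Fear-Recall and Context-Only pos sums correlated at 0.312, 0.212 and 0.531. Differently numbered pairs of these conditions ran from −0.394 to 0.123, so the numbers were taken to pair these pos sums. Over all gates, same-numbered pairs of these conditions ran from 0.07 to 0.459 and differently numbered ones reached 0.268, which overlapped. Same-numbered Fear-Recall and Homecage sums correlated at 0.131, 0.313 and 0.212. Differently numbered ones ran from −0.356 to 0.242 and overlapped them, so the correlations did not settle a pairing with Homecage. In pos sums, same-numbered Fear-Only sums correlated at 0.173 and −0.087 with Fear-Recall and at 0.289 and 0.115 with Context-Only. With 2 Fear-Only animals the deviations mirror each other, so these values settle no pairing. Over all gates, same-numbered Fear-Only and Fear-Recall sums correlated at 0.311 to 0.383 and differently numbered ones reached 0.342, which overlapped. The condition comparisons and the share of pos cells were nevertheless tested without the set number, which entered as a block in an alternative. Promoters are RefSeq's (GRCm38.p6), and positions come from GENCODE vM21 by symbol.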

Additional observations from a re-analysis of the deposited data

Results flagged for a closer look

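In 83 groups of 4 to 10 sums, 8 values stood apart from the rest of their group by Dixon's criterion at 95%, and chance flags about 1 in 20 groups. Among neg sums, Nr4a3 stood at 20.99 CPM in Fear-Recall animal 2 (others 11.8 to 15.1), Metrnl at 26.9 CPM in Fear-Only animal 3 (others 3.81 to 10.4), Ly6g6e at 125 CPM in Fear-Only animal 2 (others 4.79 to 54.2) and Nefl at 254 CPM in the same animal (others 143.03 to 186). Among pos sums, Npas4 stood at 313 CPM in Homecage animal 2 (others 12.2 to 112.5), and the summed activity-regulated effectors of that animal were low, at 1953 CPM (others 3542 to 4971). Over all gates, the summed immediate early genes of Fear-Only animal 3 were low at 2185 CPM (others 3066 to 3205), and the summed effectors of Fear-Only animal 5 high at 4395 CPM (others 3560 to 3666).

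The gate difference of Fstl4 differed between corticothalamic-like and other excitatory neurons by 8.55 log2 units (test of the interaction by edgeR, adjusted p = 0.00288), on a level in members under 1 CPM.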

How the results depend on the processing

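Of 89 alternatives to the 6 count comparisons, 68 called 0 genes by an adjusted p of 0.05. DESeq2 called 49 between gates, 49 in the interaction, 32 for Fear-Recall against Context-Only, 9 against Fear-Only, 82 against Homecage and 15 for Fear-Only against Context-Only. With each cell weighing the same (limma-trend), the interaction gave 0 calls (Fstl4 1.01) and Fear-Recall against Homecage 1 (Bub1b). With the set number as a block, all 4 condition comparisons again had 0 calls. Without the animal as a block, the gate comparison had 0 and the interaction 0 calls (Fstl4 8.61, adjusted p = 0.238 by edgeR). Leaving out 1 animal gave 0 to 1 calls in Fear-Recall against Fear-Only and in Fear-Only against Context-Only (1 without Context-Only animal 2, Eno1b, which has a near-identical copy) and against Homecage (1 without Homecage animal 2, Polr1b), 1 throughout in the interaction and 0 in the other comparisons.

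The share of members in pos against neg cells turned to 0.560 points with a lead of at least 0.5, and ran from −2.31 to 0.370 points with 1 animal left out. The reporter share of pos members against other excitatory neurons turned to −1.86 points after thinning to 100000 reads, and ran from −1.23 to 3.88 points with 1 animal left out. That of pos against neg members ran from 62.6 to 71.7 points (exact p = 0.0156 each, the smallest for 7 animals), and the pos share of Fear-Recall against Context-Only from −11.0 to −4.26 points. Arc between gates turned to −0.16 with each cell weighing the same. Causes were not tested. For 29 of 77 results on single genes DESeq2 passed the threshold where edgeR did not. A minimum of 10 cells removed no sum outside the gate comparisons. The gate sum with the fewest counts held 6 cells and 6891948 counts (neg, Context-Only animal 2).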
